A study of Mus musculus with 69 samples.

Results

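Haematopoietic stem cells (HSCs) of Kmt2c-knockout and wild-type mice, both 16 weeks old and both given the vehicle phosphate-buffered saline (PBS) 3 times at intervals of 3 weeks, were compared for the histone mark H3K4me1. The knockout mice carried 2 conditional copies of Kmt2c and the Vav-Cre transgene (Kmt2c f/f; Vav-Cre), whose recombinase is active in blood-forming cells. The labels call the other mice wild type, with no transgene named. Whether these mice carried Cre is not stated, so the groups may have differed in Cre as well as in Kmt2c. The comparison was set by these labels and rests on 7 of the 69 samples of the series, 3 knockout and 4 wild-type libraries of 1 library series. The libraries of each group shared 1 deposited peak list, with 81550 regions for the knockout and 87410 for the wild type. Chromatin of sorted, fixed HSCs was precipitated with an antibody and tagged by the Tn5 transposase (ChIPmentation). The rest of the series profiled H3K27ac, progenitor cells (HPCs), mice of 8 weeks and mice treated with 5-fluorouracil (5FU) or interleukin-1.

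Kmt2c encodes MLL3, which with its relative MLL4 (Kmt2d) adds a single methyl group to lysine 4 of histone H3. The resulting H3K4me1 marks enhancers, also those that are primed but not yet in use, and flanks the start sites of active genes. H3K27ac is found at the subset of enhancers and promoters that are active. In HSCs, which renew the blood, many enhancers of later lineages already carry H3K4me1, so a marked gene need not be transcribed.

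A list is 1 measurement per genotype. There is no spread between libraries to set a difference against, no test between the genotypes and no p-value, and each difference given here is between 2 lists. The depth of the libraries is unknown. Intervals are Wilson 95% intervals and cover counting error only. The gene windows of all 10 HSC markers (among them Kit, Tek, Procr, Slamf1, Mecom, Hlf, Meis1, Fgd5 and Esam) held H3K4me1 in both lists, with medians of 19364 covered bases in wild type and 17164 in the knockout. Among 13 markers of mature lymphocytes (T, NK and B cells), 7 had no covered base in the gene body in wild type and 8 had none in the knockout, and the 13 bodies together held 2413 and 1636 covered bases. Cd8a, Ncr1 and Ms4a1 had none in their windows in either list. Of 12 granulocyte and monocyte markers, 5 bodies were empty in each list, and the 12 together held 13928 and 11264 covered bases, against 208318 and 186774 for the HSC markers. These sums were not set against gene length. In wild type the long genes Meis1 and Mecom held 71351 and 59561 bases of the HSC sum, and Esam held 935. In their windows, as counted for the HSC markers, the 12 had medians of 6128 bases in wild type and 4741 in the knockout. For the 13 lymphocyte markers the window medians were 3536 and 3551. Of 8 erythroid and megakaryocyte markers 4 bodies were empty in each list, and of 10 stroma and endothelium markers 4 in wild type and 5 in the knockout. The part of other cells in the differences was not tested.

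Promoters covered by a strong region of only 1 list, with those of the targeted gene and of the gene whose promoter drives Cre, are shown first, since later results return to them. A strong region is one whose −log10 p, the authors' value, lies in the top 25% of its list, and an exclusive region shares no base with the other list. Each line gives the 250 bases before a RefSeq start site (build GRCm38) on the gene's strand, 5′ to 3′. Capitals mark GATAA, the core bound by GATA factors, and GGAAG, a core bound by ETS factors, each read on both strands (as TTATC and CTTCC), with no overlap between the motifs. Over all 32851 RefSeq promoters of this length, 22.6% held the GATA core and 64.1% the ETS core.
H2-DMa (chr17:34125268-34125517, + strand): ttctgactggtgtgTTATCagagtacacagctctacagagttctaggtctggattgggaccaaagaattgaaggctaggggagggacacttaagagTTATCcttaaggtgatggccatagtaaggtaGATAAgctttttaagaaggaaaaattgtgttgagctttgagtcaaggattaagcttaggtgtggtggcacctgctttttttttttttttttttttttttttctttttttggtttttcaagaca
Rras (chr7:45019220-45019469, + strand): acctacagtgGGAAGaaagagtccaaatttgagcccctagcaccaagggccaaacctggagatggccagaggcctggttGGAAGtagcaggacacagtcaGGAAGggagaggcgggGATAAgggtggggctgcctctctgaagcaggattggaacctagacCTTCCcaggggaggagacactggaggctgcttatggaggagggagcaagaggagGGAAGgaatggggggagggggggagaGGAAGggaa
Bmf (chr2:118544588-118544837, − strand): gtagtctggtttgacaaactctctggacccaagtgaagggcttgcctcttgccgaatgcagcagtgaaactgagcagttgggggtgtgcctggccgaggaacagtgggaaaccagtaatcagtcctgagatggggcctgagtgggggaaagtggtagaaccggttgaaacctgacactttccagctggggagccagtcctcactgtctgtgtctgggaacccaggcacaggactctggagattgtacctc
Vav1 (chr17:57278850-57279099, + strand): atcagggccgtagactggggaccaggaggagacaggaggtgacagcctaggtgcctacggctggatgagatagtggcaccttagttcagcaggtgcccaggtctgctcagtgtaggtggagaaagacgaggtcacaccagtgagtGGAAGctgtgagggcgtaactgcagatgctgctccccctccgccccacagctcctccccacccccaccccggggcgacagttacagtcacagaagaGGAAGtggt
Kmt2c (chr5:25498784-25499033, − strand): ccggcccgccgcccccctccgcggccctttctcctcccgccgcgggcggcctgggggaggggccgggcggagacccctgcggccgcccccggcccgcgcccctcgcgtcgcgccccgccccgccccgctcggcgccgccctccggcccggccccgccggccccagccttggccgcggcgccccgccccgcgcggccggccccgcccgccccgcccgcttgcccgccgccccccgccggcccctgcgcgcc
The H2-DMa promoter, of a chaperone that loads peptides onto MHC class II, was covered over 104 of the 250 bases in wild type and none in the knockout. The promoters of Rras, a small GTPase, and Bmf, a cell death gene of the BCL2 family, were covered over 156 and 250 bases in the knockout and none in wild type. The Kmt2c promoter, 91.6% G and C, was covered in neither list. Strong exclusive regions touched the promoter windows of 25 genes in wild type and of 20 in the knockout, a small part of the 2363 and 1416 such regions.

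The knockout list was shorter and its regions narrower. It covered 44.2 Mb against 54.0 Mb in wild type, a ratio of 0.819. The median width was 400 bases in the knockout and 455 in wild type, and 1370 knockout against 2255 wild-type regions were 2 kb or longer. Where 1 region of a list matched exactly 1 of the other (40194 pairs), the knockout region was the narrower in 62.5% and the wider in 37.3%, with median widths of 465 and 546 bases. Among the 8407 pairs that were strong in both lists the knockout region was the narrower in 62.9%. Peak strengths covered like ranges, with a median −log10 p of 4.23 in the knockout and 3.96 in wild type, and a median fold enrichment of 3.34 and 3.14, all the authors' values. These values took few levels: the 5 commonest −log10 p levels held 53.9% of knockout and 52.2% of wild-type regions.

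Both lists marked largely the same places where the mark was strong. The lists had 32.7 Mb in common, 49.8% of the bases covered by either, 60.5% of the wild-type and 73.9% of the knockout bases. Of 25396 strong wild-type regions, 90.7% (90.3 to 91.0) overlapped the knockout list, and of 24286 strong knockout regions 94.2% (93.9 to 94.5) overlapped the wild-type list. The exclusive share declined with strength. In wild type it went from 58.9% of regions with −log10 p between 2 and 3 to 6.21% between 6 and 8 and 0.230% above 10, which is 2 of 870 regions. In the knockout the same bands gave 49.4%, 4.26% and 0.238%, or 2 of 841. The −log10 p levels differed between the lists, so a band can hold unlike parts of each. Between 3 and 4 lay 31417 wild-type and 15524 knockout regions. Exclusive regions were also short, with medians of 304 bases in wild type and 250 in the knockout, against 591 and 488 for shared ones.

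**Figure D1:**
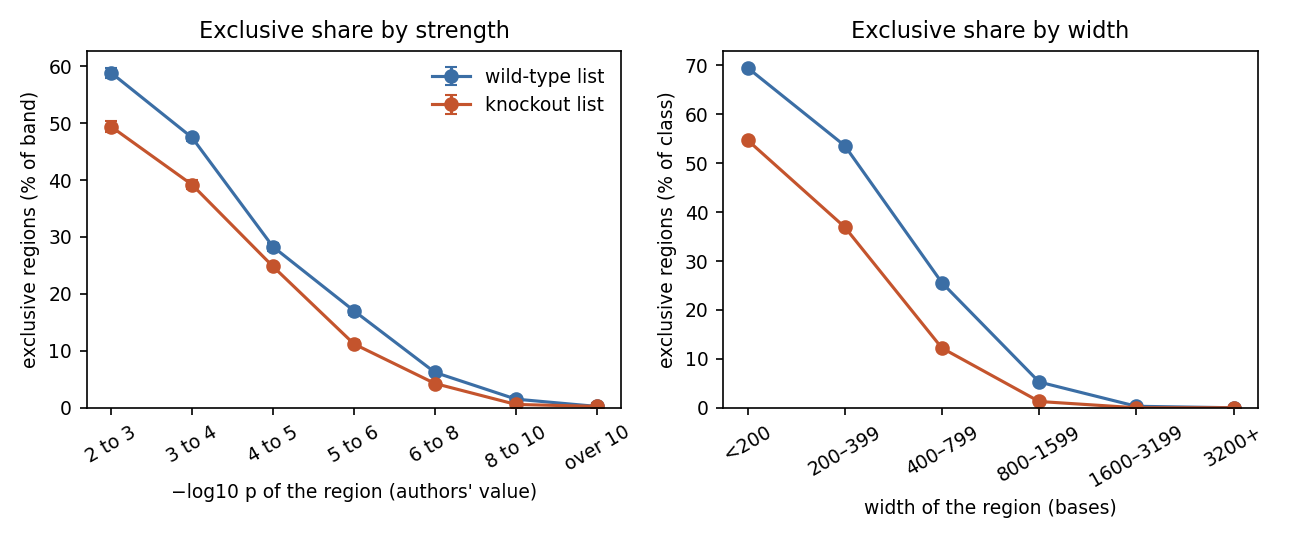
Share of regions that are exclusive to their list, by the authors' −log10 p (left, with Wilson 95% intervals) and by width in bases (right), for the wild-type list (blue) and the knockout list (orange). In both lists the share drops from 58.9% and 49.4% of the weakest regions to under 1% of the strongest and longest, and the knockout share lies below the wild-type share in every strength band under 10.

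Of the 3779 strong exclusive regions, 2363 lay in wild type and 1416 in the knockout, so 37.5% (35.9 to 39.0) were on the knockout side. This balance depended on how the lists were matched. With equal numbers of peaks the knockout share was 43.8%, and with peaks of −log10 p of at least 3 it was 26.4%. With equal covered bases, which kept 60402 wild-type and all 81550 knockout peaks, the share turned to 78.8%.

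The strongest exclusive regions are given with the protein-coding gene that held them or, where none did, the nearest one, which can be far away. In wild type the strongest 2, both with −log10 p 10.1, were a 552-base region (chr6:127251403-127251954) 99215 bases from Ccnd2, the cyclin D2 gene, and a 650-base region inside Cubn (chr2:13389860-13390509), which encodes the uptake receptor cubilin. The next 6, all at 9.23, lay inside Urgcp, Slc16a12, which encodes a creatine transporter, H2-DMa, Mdfic, Pdcd1lg2, which encodes the immune checkpoint ligand PD-L2, and St6galnac3, a sialyltransferase gene. The H2-DMa region (chr17:34124760-34125371) reached into the promoter printed above, which belongs to a start site inside the gene. At 8 weeks all 8 overlapped HSC regions of both genotypes. The regions at Ccnd2, Cubn, Slc16a12 and St6galnac3 also overlapped wild-type H3K27ac after PBS, and of these only the ones at Ccnd2 and Cubn overlapped knockout H3K27ac.

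In the knockout list the strongest exclusive region (chr17:57279457-57280318, −log10 p 11.01) began 357 bases inside Vav1. It was followed by one of −log10 p 10.5 in Dpp9, a peptidase gene, and by 3 of 9.58 in Ezr, which encodes the membrane linker ezrin, in Glg1, a Golgi protein gene, and 193 bases from Hbb-bt, an adult β-globin gene (chr7:103812032-103812331). The others lay in Zmiz1, a transcriptional coactivator gene, in Arhgef4, a guanine nucleotide exchange factor gene, and 6599 bases from Sec31a, a gene of the vesicle coat. All 8 overlapped the knockout list of HSCs at 8 weeks. The regions at Hbb-bt and Arhgef4 did not overlap the wild-type list at 8 weeks, and the other 6 did. The Hbb-bt region overlapped H3K27ac in both genotypes, as did the one in Vav1. The region in Arhgef4 overlapped it in the knockout only and the one in Zmiz1 in wild type only, and the other 4 in neither.

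Vav1 (chr17:57279100-57329236), a signalling gene of blood cells, held the strongest region of the whole knockout list. This region (chr17:57288327-57293395) was 5069 bases long, with −log10 p 32.1 and fold enrichment 11.2. The wild-type list had 4 separate regions over the same stretch, of which the strongest had −log10 p 8.39 and fold enrichment 4.73. At the promoter, a knockout region (chr17:57277965-57279008) with −log10 p 20.3 was exceeded by only 3 others in its list. It covered 159 of the 250 bases printed for Vav1, none of which was covered in wild type. The wild-type region next to it (chr17:57277973-57278695) had −log10 p 3.96. Over the gene and 50 kb on each side, Vav1 had 15552 covered bases in wild type and 16918 in the knockout. The Vav-Cre transgene is made with regulatory sequence of Vav1, and in a peak list reads from the transgene and from the gene cannot be told apart.

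At Kmt2c itself (chr5:25271795-25498855) the knockout list had more H3K4me1 than the wild-type list, 4534 against 2826 covered bases in the gene and 50 kb around it. The region nearest to the start was at 1511 bases in wild type (chr5:25496798-25497272, −log10 p 6.05) and at 1609 in the knockout (chr5:25496895-25497174, −log10 p 4.85). The knockout list had a 622-base region 4665 bases from the start (chr5:25493497-25494118, −log10 p 6.31) and a strong exclusive region of 758 bases at 7118 bases (chr5:25490908-25491665), whose −log10 p of 5.56 is the lowest that counts as strong. A peak list of a histone mark does not show whether the conditional exons were deleted.

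Around start sites both lists had the form known for H3K4me1, low at the start and high on either side. At the start itself 2.33% of 21045 start sites lay in a wild-type region and 2.03% in a knockout region. The highest coverage was downstream, 19.3% at 1200 bases in wild type and 17.5% at 1300 bases in the knockout. Upstream it reached 10.1% and 8.65%, both at 1000 bases. The ratio of the downstream height to the start was 8.259 in wild type and 8.604 in the knockout. Start sites of chromosome 18 were not used here.

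**Figure D2:**
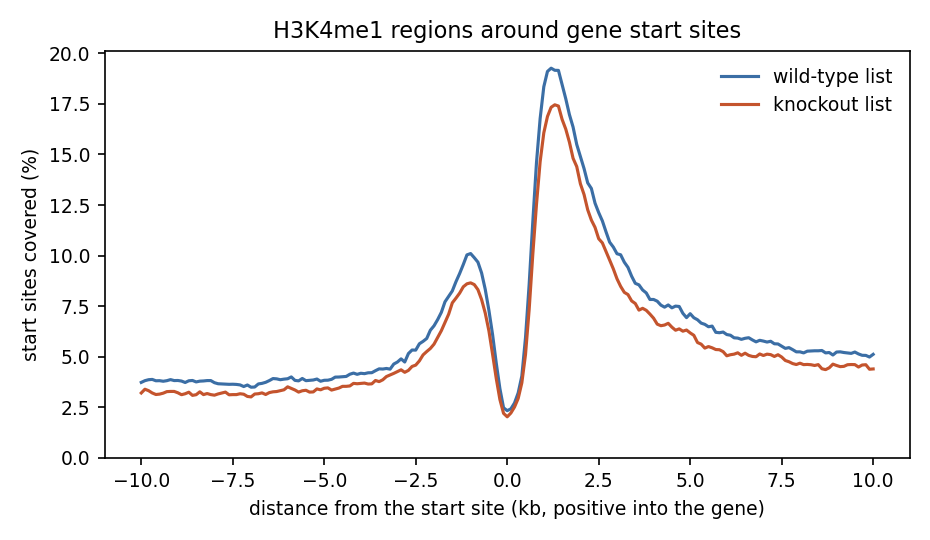
Share of 21045 start sites whose base at each distance (in kb, positive into the gene) lies in a region of the wild-type list (blue) or the knockout list (orange). Both lines have a minimum at the start and a higher shoulder inside the gene, at 19.3% in wild type and 17.5% in the knockout.

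Most strong exclusive regions lay inside genes, 67.8% (65.9 to 69.7) in wild type and 69.4% (67.0 to 71.8) in the knockout, against 74.8% and 75.7% of strong shared regions. Within 1 kb of a gene end were 11.5% (10.2 to 12.8) of the wild-type and 13.6% (11.9 to 15.4) of the knockout ones, intervals that overlap. More than 50 kb from any protein-coding gene were 9.52% (8.40 to 10.8) of strong exclusive wild-type regions and 6.36% (5.20 to 7.75) of knockout ones. The median distance to a start site was 24.2 kb in wild type and 17.6 kb in the knockout, so the wild-type exclusive regions lay further out. For strong shared regions it was 17.8 and 16.7 kb.

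For each protein-coding gene the bases covered by peaks in the gene and 50 kb on either side were summed. The knockout to wild-type ratio was taken as a log2 value after adding 1000 bases to both sums. Of 21631 genes, 15123 had at least 1000 covered bases in either list and are called measured. The median log2 ratio was −0.18, and 73.7% of measured genes had fewer covered bases in the knockout. This median turned to 0.07 with equal covered bases. Below, the relative log2 ratio is the value after the median was subtracted. Of the measured genes 581 (3.84%) were at least 1.5-fold above the median gene and 829 (5.48%) at least 1.5-fold below it, and these shares are the background for every count of genes below. With 5000 bases added instead of 1000 the counts were 12 and 54. With equal covered bases 1033 were above, and with no minimum of covered bases 1398 were below.

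The ratio moved with the number of genes in the neighbourhood. In the 1627 measured genes with at most 0.5 other protein-coding genes per 100 kb of window, the median relative log2 ratio was −0.15 (quartiles −0.41 and 0.08). With more than 8 such neighbours per 100 kb (561 genes) it was 0.09 (quartiles −0.02 and 0.24), and the groups between followed in order. The share of genes at least 1.5-fold below the median gene went from 13.6% in the sparsest to 0.357% in the densest group, while the share above went from 4.61% to 1.43%. Gene length followed the same direction: of 10 groups by length, the shortest genes (median 2.16 kb) had a median relative log2 ratio of 0.03 and the longest (189 kb) one of −0.12. The difference between the densest and the sparsest group was 0.25 log2 units here, 0.18 for H3K27ac in HSCs after PBS and 0.42 for H3K4me1 after 5FU. At 8 weeks it was −0.02 in HSCs and −0.08 in HPCs. The wild-type 5FU list pooled 6 libraries, from the library series compared here and from a further library series. The knockout 5FU list pooled 4 libraries, all from the library series compared here. The difference here was 0.13 with 5000 added bases and 0.0051 with no minimum of covered bases. Base composition of the windows was not tested. Neighbouring genes share windows and are not independent.

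**Figure D3:**
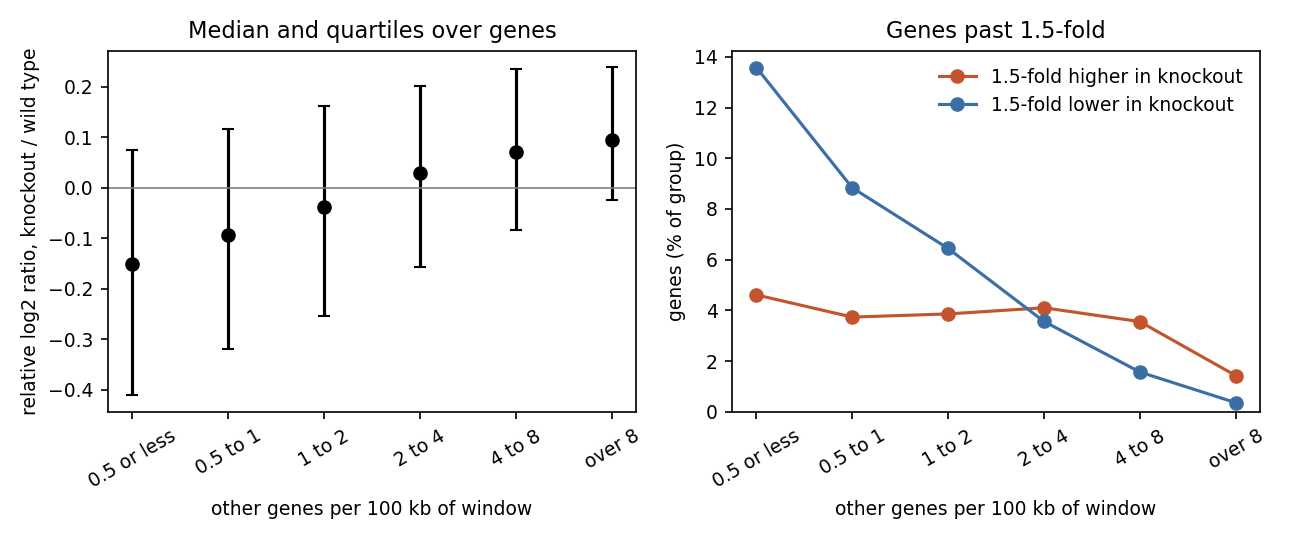
Relative log2 ratio of covered bases, knockout over wild type, for measured genes grouped by the number of other protein-coding genes per 100 kb of window (left, median and quartiles), and share of each group past 1.5-fold in either direction (right). The median runs from −0.15 in the sparsest to 0.09 in the densest group (a difference of 0.0051 with no minimum of covered bases), and the share below goes from 13.6% to 0.357%.

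Genes with many covered bases in their windows were examined apart from the rest, by requiring a mean of at least 10 kb covered. Such a sum is over separate peaks and is not the length of 1 domain. The longest single region was 8473 bases in wild type and 7812 in the knockout. Among these 3782 genes, 55 were at least 1.5-fold below the median gene and 4 above it. The 8 lowest of them were long, with a median length of 216 kb, against 23.6 kb for all of these genes. Slc16a12 had 18043 covered bases in wild type and 6771 in the knockout, a relative log2 ratio of −1.12. Its window held 4 strong exclusive wild-type regions and no knockout one. Hdac9, a class II histone deacetylase gene, had 16588 and 6412 (−1.07). Dock10, which encodes an activator of small GTPases, had 21998 and 8912 (−1.04). Pde4d, which encodes a cAMP phosphodiesterase, had the most covered bases of the 8, 48699 and 21615 (−0.96), in 91 and 58 peaks. Its window held 9 strong exclusive wild-type regions and 2 knockout ones. The remaining 4, with values between −0.89 and −0.86, were Adgrl2, an adhesion receptor gene, Prune2, Aim2, the sensor of cytosolic DNA, and Rhobtb3. All 8 stayed at least 1.5-fold below the median gene under each of the 7 other settings tried.

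The same 8 genes were looked up in 4 comparisons of knockout with wild type made from other libraries, each relative to its own median gene. That median gene differed: its log2 ratio was 0.39 in HSC H3K4me1 at 8 weeks, −0.0052 in HPC H3K4me1, −0.15 in H3K27ac after PBS and −1.20 in H3K4me1 after 5FU. At 8 weeks 4 of the 8 had more covered bases in the knockout HSC list than in wild type. These were Slc16a12 (20388 in wild type and 21222 in the knockout), Dock10 (31534 and 35249), Adgrl2 (25239 and 31904) and Rhobtb3 (18540 and 22769), so being below the median gene there was not a loss of covered bases. Their relative log2 ratios, as a group of 8, had a median of −0.37 in HSC H3K4me1 at 8 weeks (8 of 8 below), −0.25 in HPC H3K4me1 at 8 weeks (8 of 8) and −0.70 in HSC H3K4me1 after 5FU (8 of 8). For H3K27ac in HSCs after PBS it was −0.77 (8 of 8, from −1.19 to −0.21). Hdac9, Dock10, Pde4d, Adgrl2 and Prune2 had no other protein-coding gene in their windows. Genes with at most 0.5 neighbours per 100 kb had medians of −0.29 after 5FU and −0.14 in H3K27ac. At 8 weeks these genes with few neighbours had medians of 0.0042 in HSCs and 0.0007 in HPCs. The 8 genes were not matched to others of like density. For Hdac9 H3K27ac covered 10716 bases in wild type and 3604 in the knockout, and for Dock10 9856 and 3311.

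The 8 genes with the largest surplus were shorter, with a median length of 13.9 kb, and their excess was smaller. Nccrp1 and Pak4, a p21-activated kinase gene, are neighbours that share most of their windows. Pak4 had 8301 covered bases in wild type and 12755 in the knockout, a relative log2 ratio of 0.74, and Nccrp1 8112 and 12755 (0.77). Rnf220, a ubiquitin ligase gene, had the most covered bases of these 8, 21642 and 30301 (0.64), with 30 peaks in wild type and 62 in the knockout. It missed 1.5-fold at −log10 p of at least 3 (0.58), with 5000 added bases (0.51) and with no minimum (0.54). Atf6b, a transcription factor gene of the unfolded protein response, had 9695 and 13418 (0.61). Cilp2, Dnal4, Colgalt1 and Pou2f3 followed with 0.56 to 0.55, short of 1.5-fold. Of the 8, 7 were above the median gene in HSC H3K4me1 at 8 weeks, where Rnf220 stood at 0.60 with 38054 and 76497 covered bases. In H3K27ac 4 of 6 measured were above, in HPC H3K4me1 5 of 8 and after 5FU 4 of 8. At Atf6b 6 of the 7 other settings gave less than 1.5-fold, with 0.16 for a 10 kb window.

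The genes with the most strong exclusive regions of 1 direction were picked among those with none of the other in their window. The absence of the other direction is thus set by this choice, which left out Pde4d with 9 and 2. The counts were not set against window length. Over the whole lists, 2363 of 87410 wild-type and 1416 of 81550 knockout regions were strong and exclusive. Prkch, which encodes a protein kinase C, had 7 in wild type and none in the knockout, with 43010 and 26797 covered bases (−0.49). Slc43a1, an amino acid transporter gene, Ubac2 and Chd9, a chromatin remodeller gene, had 5 each in wild type and Tmem223 had 4. On the knockout side Jazf1, a zinc finger gene, had 4 and none in wild type, although its covered bases were fewer, 12132 in wild type and 9766 in the knockout (−0.11). Ptprcap, which encodes a partner of the leukocyte phosphatase CD45, had 3, as had the neighbours Gpt, Mfsd3 and C030006K11Rik, whose windows overlap.

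The gene lists follow by role. Members of a list that are neighbours share parts of their windows, so counts of members above or below the median gene are not counts of independent genes. With 5000 added bases every list member given below as past 1.5-fold missed it, and losses under other settings are given with the member. Some of these members reached the minimum for measured genes only in the list with more covered bases. For Cdh5, Nkx2-1 and Il1rap this was the knockout list. For Kdm6a, Fas, Ebf1, Gbp2, Nr4a2 and Mcm3 it was the wild-type list. The windows of these genes held between 1 and 8 peaks per list, so their ratios rest on few peaks. The 22 transcription factor genes of HSCs had a median relative log2 ratio of −0.0035, with 11 above and 11 below the median gene, none at least 1.5-fold above and 1 below. Hlf, which marks the most primitive HSCs, had 32224 covered bases in wild type and 28118 in the knockout (−0.02). Mecom, needed for HSC maintenance, had 60684 and 54396 (0.02), and Meis1, the HOX cofactor gene, 75334 and 66622 (0.0004). Runx1 stood at −0.10, Erg at 0.10 and Tal1 at −0.20. These 6 differed from the median gene by less than 1.2-fold. Other members lay further out, Nkx2-3 at −0.43 (12829 and 8075), Hoxa9 at −0.39 (8526 and 5458), Myb at −0.28 and, on the other side, Hoxb4 at 0.37 (6514 and 7612). The only member past 1.5-fold was Gata2, a zinc finger factor of HSCs and progenitors, with 10073 and 5476 covered bases (−0.60) and 20 against 13 peaks. Inside Gata2 a wild-type region of 2530 bases (chr6:88203650-88206179, −log10 p 7.58) had 1 knockout counterpart of 919 bases (chr6:88203800-88204718, −log10 p 4.70). The region upstream (chr6:88192523-88193254) had −log10 p 6.80 in wild type and 8.73 in the knockout (chr6:88192610-88193067). Gata2 stood at −0.18 in HSC H3K4me1 at 8 weeks and at 0.14 in H3K27ac. With peaks of −log10 p of at least 3, equal covered bases or 5000 added bases, Gata2 missed 1.5-fold (−0.51, −0.50 and −0.42).

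Receptors and surface proteins of HSCs lay slightly below the median gene. The list of 16 had a median of −0.11, with 12 below and 4 above, and no member passed 1.5-fold. Kit, the stem cell factor receptor gene, had 29705 covered bases in wild type and 24606 in the knockout (−0.09). Tek, the angiopoietin receptor gene, had 3723 and 2851 (−0.12). Procr, the EPCR marker gene, was the lowest with 11835 and 7696 (−0.39).

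Homing and adhesion genes had a median of −0.25, with 8 of 10 measured members below the median gene. It was the lowest of the 18 medians here, but not with equal covered bases (−0.20, against −0.28 for interferon genes) or with no minimum (−0.289, against −0.295). Only Jam3, a junctional adhesion molecule gene, passed 1.5-fold, with 8131 and 4260 covered bases (−0.62). Itga4, the α4 integrin gene, stood at −0.53 (11205 and 6504). Cxcr4, the receptor that holds HSCs in the marrow, had 10268 and 6999 (−0.32). Medians for this list were −0.19 in HSC H3K4me1 at 8 weeks and −0.19 in H3K27ac, −0.04 in HPCs and 0.11 after 5FU.

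Quiescence and immediate early genes had a median of −0.15, with 13 of 18 below the median gene. Nr4a2, an orphan nuclear receptor gene, passed 1.5-fold with 2616 and 798 covered bases (−0.83), and just missed it with equal covered bases (−0.58). Cdkn1a, the gene of the cyclin-dependent kinase inhibitor p21, had 14014 and 8838 (−0.43), and Cdkn1c, which encodes p57, 9025 and 7365 (−0.09). With a 10 kb window Cdkn1a turned to 0.46, and with equal covered bases it stood at −0.08. In the cell cycle list, with a median of −0.09, 12 of 18 were below, and only Mcm3, of the replicative helicase, passed 1.5-fold with 2793 and 953 (−0.78). Myc, a driver of growth, was under the minimum, with no covered base in wild type and 498 in the knockout.

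Lineage genes differed at single members. In the granulocyte and monocyte list the median was −0.03, with 10 of 20 below, 2 of them at least 1.5-fold. These were Gfi1, a repressor gene that limits HSC cycling and directs granulocytes (11412 and 5551, −0.75), and the chemokine receptor gene Ccr2 (9724 and 4245, −0.86). Ccr2 also stood at −0.85 in H3K27ac but at 0.08 in HSC H3K4me1 at 8 weeks. With a 10 kb window the Ccr2 value was −0.25 and the list median −0.23. Cebpa, the master factor of granulocyte fate, had 9825 and 10812 (0.30), Spi1, which encodes PU.1, 18977 and 19528 (0.21), and Irf8, of monocytes, 11505 and 8712 (−0.19). Irf8 turned to 0.26 with a 10 kb window. The megakaryocyte and erythroid list had a median of −0.12, with 9 of 15 below and none past 1.5-fold. The lymphoid list had a median of −0.11, with 12 of 20 below. Its 3 members past 1.5-fold were Ebf1, the B cell specification gene (2358 and 598, −0.90), Lef1, a WNT pathway factor gene (6784 and 3146, −0.73), and Blnk, a B cell adaptor gene (3646 and 1667, −0.63). Blnk and Lef1 missed 1.5-fold with equal covered bases (both −0.47), and Blnk also against genes of like length (−0.58).

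The IL-1 and NF-kB, interferon and antigen presentation lists had medians below the median gene, while single members lay past 1.5-fold in both directions. The IL-1 and NF-kB list had a median of −0.04, with 12 of 20 below. Il1r1, the IL-1 receptor gene, had 13476 and 8978 covered bases (−0.36) and Nfkbia, which encodes the inhibitor IκBα, 11731 and 7937 (−0.34). Il1rap, the co-receptor gene, passed 1.5-fold upwards from low levels, 839 and 1477 (0.60), and missed it in 4 of the 7 other settings, with 0.38 at −log10 p of at least 3. The interferon list had a median of −0.19, with 16 of 24 below. Among those below were the neighbours Ifit1, Ifit2 and Ifit3, whose windows overlap each other and that of Slc16a12. Gbp2, an interferon-induced GTPase gene, had 1934 and 570 (−0.73), and missed 1.5-fold at −log10 p of at least 3 (−0.37) and with equal covered bases (−0.41). Isg15, a ubiquitin-like effector gene, had 1163 in wild type and 3565 in the knockout (1.25), with 3 and 9 peaks in its window. Stat2, a transducer of interferon signals, had 3188 and 4813 (0.65), and missed it with equal covered bases (0.57) and with no minimum (0.55). Isg15 stood at 0.28 in HSC H3K4me1 at 8 weeks and at −0.04 in H3K27ac. Antigen presentation had a median of −0.05, with 10 of 14 below, and H2-Ab1 of MHC class II passed 1.5-fold (8818 and 4716, −0.61), and just missed it with a 10 kb window (−0.585). Most of those below, Psmb9, Tap1, Psmb8, Tap2, H2-Ab1, H2-Aa and H2-Eb1, are neighbours on chromosome 17 with overlapping windows. In the p53 list (median 0.05, 9 of 16 above) the death receptor gene Fas had 3044 and 701 (−1.07), and −0.57 with a 10 kb window, short of 1.5-fold.

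Genes of the MLL3 and MLL4 complex had a median of 0.28, with 8 of 10 above the median gene, 2 of them at least 1.5-fold and 1 at least 1.5-fold below. Tissue genes stood nearly as high (0.27), and at −log10 p of at least 3 the complex (0.18) was below mature T, NK and B cell markers (0.26). Kmt2c stood at 0.71 and its relative Kmt2d at 0.27, with 8105 covered bases in wild type and 8695 in the knockout. In the other comparisons Kmt2c stood at 0.83 in HSC H3K4me1 at 8 weeks, 0.35 in HPCs, 0.14 in H3K27ac and −1.07 after 5FU. Ncoa6, a coactivator subunit gene, had 5265 and 7323 (0.59), just at 1.5-fold, and missed it in 4 of the 7 other settings, with 0.12 at −log10 p of at least 3. Kdm6a, the gene of the H3K27 demethylase UTX in the complex, had 2861 and 204 (−1.51), with 8 weak wild-type peaks and 1 knockout peak. Kdm6a lies on chromosome X, where the wild-type list had only 129 (0.148%) and the knockout list 87 regions (0.107%). In the other lists compared here chromosome X held 0.0734% to 1.197% of regions. At 8 weeks the Kdm6a window held 2286 covered bases in wild type and 8425 in the knockout, the opposite direction. Medians for the complex were 0.28 in HSC H3K4me1 at 8 weeks, 0.04 in H3K27ac, 0.02 in HPCs and −0.05 after 5FU. Other H3K4 enzymes and cofactors had a median of −0.07, with none past 1.5-fold.

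Lists of genes outside HSC function, and housekeeping genes, were also above the median gene, whose own log2 ratio was −0.18. Before subtraction the medians were 0.10 for tissue genes, 0.0048 for mature T, NK and B cell markers, −0.07 for stroma and −0.05 for housekeeping. Summed covered bases were fewer in the knockout for tissue genes (24789 and 23522), stroma (36804 and 31050) and housekeeping (147371 and 136436). For mature T, NK and B cell markers they were 49598 and 49765. Tissue genes not used in blood had a median of 0.27 over 10 measured members, mature T, NK and B cell markers one of 0.18 over 9, stroma and endothelium markers one of 0.11 over 7 and housekeeping genes one of 0.12 over 12. Past 1.5-fold in these lists were the endothelial cadherin gene Cdh5 (532 and 1491, 0.88), the smooth muscle actin gene Acta2 (6273 and 2406, −0.92), the gut factor gene Cdx2 (4300 and 1926, −0.68) and the lung and thyroid factor gene Nkx2-1 (368 and 1215, 0.87). Cdx2 missed 1.5-fold in 4 of the 7 other settings, with −0.06 at equal covered bases, −0.43 at −log10 p of at least 3 and −0.47 with equal numbers of peaks. Cdh5 and Nkx2-1 reached the minimum for measured genes in the knockout list only. Acta2 has Fas as a neighbour, and both were low. In HSC H3K4me1 at 8 weeks the medians of these 4 lists were −0.06, 0.03, −0.32 and −0.02, in the same order.

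**Figure D4:**
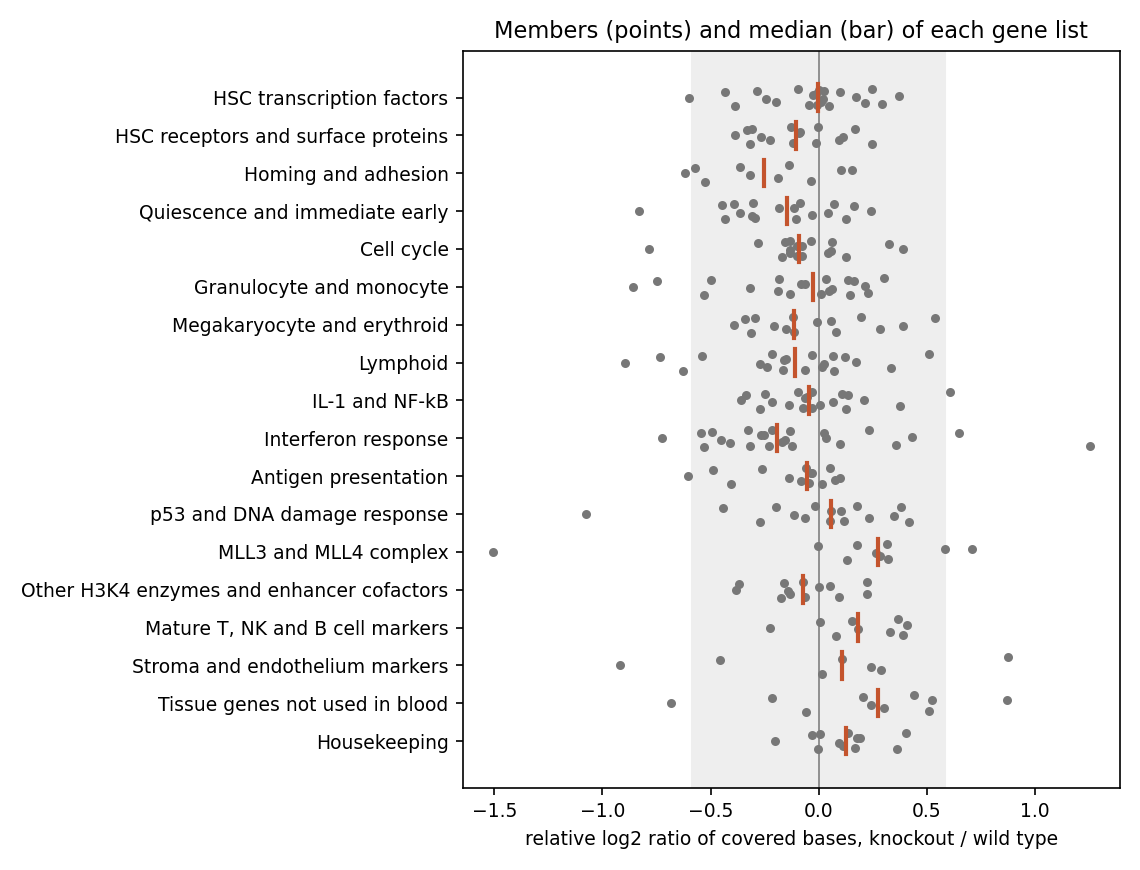
Relative log2 ratio of covered bases, knockout over wild type, for each measured member (grey points, spread vertically for visibility) and the median (orange bar) of 18 gene lists. The grey band marks differences under 1.5-fold, which hold most members of every list, and the medians run from −0.25 for homing and adhesion to 0.28 for the MLL3 and MLL4 complex.

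H3K4me1 lists from other libraries held most of the strong regions found in only 1 list here, and H3K27ac lists held a smaller part. Of the strong exclusive wild-type regions, 90.01% (88.7 to 91.2) overlapped wild-type H3K4me1 in HSCs at 8 weeks and 94.5% (93.5 to 95.3) overlapped that of the knockout. For the strong exclusive knockout regions these shares were 75.5% (73.2 to 77.7) and 90.4% (88.7 to 91.8). The knockout list at 8 weeks is the longer, 134509 against 118083 peaks, and strong shared regions of the wild-type list were in the 8-week lists at 98.5% and 99.5%. After 5FU the wild-type list held 98.2% of the exclusive wild-type and 91.6% of the exclusive knockout regions. The knockout list after 5FU, of 76274 peaks against 132050 in wild type, held 65.1% and 52.7%. In wild-type HPCs 84.3% and 70.1% had H3K4me1. With H3K27ac in HSCs after PBS, 36.8% (34.9 to 38.7) of the exclusive wild-type regions overlapped in wild type and 29.4% in the knockout. Of the exclusive knockout regions 24.5% (22.3 to 26.8) and 21.7% did, and 57.9% and 50.7% of strong shared wild-type regions.

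**Figure D5:**
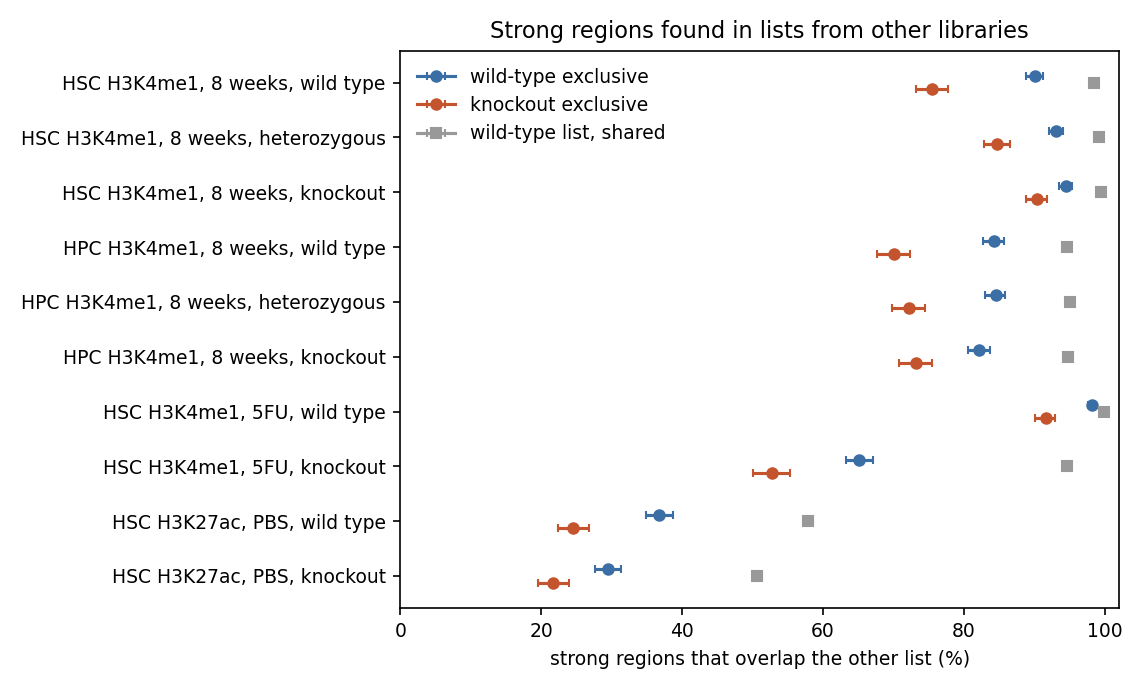
Share of strong exclusive wild-type regions (blue), strong exclusive knockout regions (orange) and strong shared regions of the wild-type list (grey squares) that overlap each of 10 lists from other libraries, with Wilson 95% intervals. Exclusive knockout regions have the lowest share in each list, and the H3K27ac lists hold the smallest part of all 3 classes.

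Regions found in only 1 list of another pair were compared by genotype. Among strong exclusive regions that overlapped just 1 of the 2 lists of HSCs at 8 weeks, 83.1% of those from the knockout (265 of 319) and 69.9% of those from wild type (186 of 266) overlapped the knockout list. The difference was 13.1 percentage points (Newcombe 95% interval 6.27 to 20.004), against 4.39 (−0.648 to 9.59) for strong shared regions. For exclusive regions it was 15.6 when the 8-week lists were limited to equal numbers of peaks and 16.4 when limited to equal covered bases. With the 2 compared lists at equal covered bases it was 4.04 (−4.55 to 15.6), and for the top 10% of each list 4.39 (−11.1 to 23.6), intervals that include 0. In HPCs at 8 weeks the difference was 16.9 points (8.55 to 24.96). With the compared lists at equal covered bases it was 10.8 (−0.061 to 21.2) and for the top 10% 14.2 (−12.05 to 37.8), again with 0 in the intervals. For H3K27ac in HSCs after PBS it was 12.8 points (4.54 to 21.1), and 5.17 (−3.87 to 13.5) with the H3K27ac lists at equal covered bases, an interval that includes 0. After 5FU it was 1.90 points (0.454 to 3.67), where only 8 exclusive wild-type and 17 exclusive knockout regions were in the knockout list alone. This interval too included 0 at −log10 p of at least 3 (−0.264 to 3.57), at equal covered bases (−1.08 to 2.71) and for the top 10% (−3.01 to 10.5). These intervals count regions and not libraries.

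The genes past 1.5-fold here were looked up in comparisons from other libraries, whose shares over all measured genes are given beside them. Of the 829 lower genes, 699 were measured in H3K27ac after PBS and 15.3% of these were at least 1.5-fold lower there, against 4.68% of all genes, while 0.715% were higher against 0.768%. Of the 581 higher genes, 490 were measured there and 5.71% were at least 1.5-fold higher and 0.816% lower. In HSC H3K4me1 at 8 weeks, 15.2% of the higher genes were at least 1.5-fold higher again, against 4.86% of all genes. For the lower genes the shares there were 2.06% lower, against 1.01% of all, and 4.96% higher, so fewer of them were lower than higher. In HPCs at 8 weeks 4.54% of the lower genes were lower again (2.48% of all) and 6.03% of the higher genes were higher again (2.04% of all). After 5FU, where wild type had 6 libraries and the knockout 4, 35.7% of the lower genes were lower again, against 10.4% of all genes. Of the higher genes 2.76% were higher again, below the 3.81% of all genes, and 14.9% were lower. Over the 14149 genes measured in both, the relative log2 ratios of H3K4me1 and H3K27ac after PBS had a Pearson correlation of 0.26 and a Spearman correlation of 0.23. Over the 15113 genes measured in HSC H3K4me1 at both ages the correlations were 0.15 and 0.14. These are across genes, which share windows, and no library was common to the comparisons set side by side. The shares over all genes given above were not matched for gene density, with which the ratio also moved in H3K27ac and after 5FU.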

How the data were processed

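HSC chromatin of 3 knockout and 4 wild-type libraries was profiled for H3K4me1. Novoalign and MACS2 were used on build mm10 (GRCm38), per the submitters' processing notes; no source used here gives versions, filters or how libraries were pooled. The authors deposited 1 list per group, giving peak positions, a fold enrichment (a linear ratio) and −log10 p and −log10 q per peak. These values are the authors'. The strength limit was set inside each list, while the −log10 p bands and the limit of at least 3 were the same for both lists. No 2 peaks of a list overlapped or touched, so each is a region. The ties at the strength limit were kept, which made 29.1% of wild-type and 29.8% of knockout regions strong.

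Overlaps, covered bases and ratios were computed with Python 3.11 and pandas and tested on simulated lists. Genes, start sites and promoters are RefSeq's for GRCm38.p6. Of 312 listed genes 310 matched. Alternatives covered matching of list size, strength limit, overlap, window, added bases and minimum. Windows, thresholds and the lists, like the part of the series compared, were chosen with earlier results of these data known. Genes were named by rule: those at the 8 strongest exclusive regions of each list, the 8 with the largest ratio each way among genes with 10 kb covered, the 5 with most strong exclusive regions of 1 direction, up to 4 list members each way past 1.5-fold, and a set of reference genes (such as Kit, Runx1 and Cebpa). Promoters printed beyond Vav1 and Kmt2c were chosen after their values were seen. Of the 18 deposited peak lists, 12 were read; the others (H3K27ac after 5FU, and HPCs given PBS or interleukin-1) were not used. Values of some genes in the lists are not reported here.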

Additional observations from a re-analysis of the deposited data

How the results depend on the processing

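No paired analysis was possible because each group has 1 pooled list, with no values per library. Leaving out single libraries was not possible for the same reason. The knockout share of strong exclusive regions (37.5%) was 43.8% with equal numbers of peaks, 78.8% with equal covered bases, 26.4% at −log10 p of at least 3 and 39.4% for the top 10% of each list. The share of strong wild-type regions that overlapped the knockout list (90.7%) was 89.1% with 50% overlap, 91.6% by fold enrichment, 97.2% for the top 10%, 94.9% with equal covered bases and 88.3% at −log10 p of at least 3. For knockout regions (94.2%) the values were 92.9% with 50% overlap, 94.7% by fold enrichment, 98.1% for the top 10%, 92.4% with equal numbers and 87.3% with equal covered bases. The difference between exclusive regions in the 8-week HSC lists was 4.04 points (−4.55 to 15.6) with equal covered bases and 4.39 (−11.1 to 23.6) for the top 10%, in H3K27ac 24.3 for the top 10%, and after 5FU 8.64 and 4.24 with those lists at equal numbers and equal covered bases. None of the 9 settings tried for each of the 4 comparisons, HPCs included, turned the sign of these differences, though some intervals include 0. The median log2 ratio over all genes (−0.18) was 0.072 with equal covered bases and −0.074 with no minimum of covered bases. Genes at least 1.5-fold above the median gene (581) numbered 12 with 5000 added bases and 1033 with equal covered bases, and those below (829) numbered 54 with 5000 added bases and 1398 with no minimum. The difference between gene-dense and gene-poor windows (0.25) was 0.13 with 5000 added bases and 0.0051 with no minimum, where genes with no covered base enter at a log2 ratio of 0. With no minimum the list medians were −0.15 for antigen presentation, −0.21 for HSC receptors, −0.10 for HSC transcription factors, 0.0040 for housekeeping, −0.14 for IL-1 and NF-kB, −0.29 for interferon, −0.21 for lymphoid, 0.17 for the MLL3 and MLL4 complex, 0.074 for mature T, NK and B cell markers, −0.18 for other H3K4 enzymes, −0.28 for quiescence, 0.074 for tissue genes and −0.046 for p53. A 10 kb window gave −0.23 for granulocyte and monocyte genes and −0.074 for p53. With 5000 added bases the complex stood at 0.17 and tissue genes at 0.16. Equal numbers gave 0.24 for stroma, −log10 p of at least 3 gave −0.015 for megakaryocyte and erythroid genes, genes of like length gave 0.10 for HSC transcription factors, and equal covered bases took housekeeping to −1.9e-05. Settings by ties, −log10 q, like length and matched other lists were chosen after seeing the data. Of the 35 named genes past 1.5-fold, 8 kept it under all 7 settings and 20 under all but 5000 added bases, and none changed sign. Some named genes short of 1.5-fold did change sign, such as Cdkn1a and Irf8 with a 10 kb window. The shares of strong exclusive regions within 1 kb of a gene end stayed within their intervals under all 7 settings tried for them.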
